A study of Mus musculus with 3 samples.

Results

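Expression of 10 genes that mark macrophages was examined in fractions of mouse epididymal fat. They are 10 of the 37323 genes that the arrays carry. 5 are lipid-associated macrophage genes (Gpnmb, Spp1, Trem2, Cd68 and Lgals3), 3 are genes of resident macrophages (Mrc1, Cd163 and Folr2), and 2 are general myeloid genes (Lyz2 and Csf1r). Members were selected by name, on the basis of signals already seen on these arrays, and so their values in SVC, SPA and MA are given as a description without a test. All probes that carry a member's name and are not controls were read, which gave 16 probes and 25 spots per array. 5 of the genes have 1 probe and 5 have several.

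Epididymal fat of male C57/BL mice aged 20 weeks was digested with collagenase in every case. The digest was spun at 9 g for 1 s, and the phase below the floating cells was SVC (stromal vascular cells, the non-adipocyte cells of fat). The floating cells were spun again at 226 g for 3 min, which gave SPA (small proliferative adipocytes) as the sediment and MA (mature adipocytes) as the floating layer. SVC and SPA were grown in DMEM and harvested at 90% confluency, while no culture is described for MA, and the titles of SVC and SPA share a date that MA does not have, so that fraction, culture and date cannot be told apart in any comparison with MA. The fractions are mixtures separated by buoyancy, and the labels give neither a sort for macrophages nor the number of animals. RNA of each fraction was hybridized to 1 Agilent 1-colour array, which makes 3 arrays and no replicate, and p-values and errors between samples cannot be given. Fewer macrophages in a fraction and less RNA of a gene per macrophage cannot be told apart in such samples.

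Signals are given as scaled signal, the processed signal of a probe as a multiple of the 75th percentile of its array, and ratios between arrays as log2 ratios. On each array, between 58.6% and 61.4% of the spots that are not controls stood well above background, and 0 were saturated. Probes that were spotted 10 times on each array had a median SD between spots of 0.04 in SVC, 0.04 in SPA and 0.05 in MA (log2), which covers spotting error only. When a gene had 2 measured probes, their log2 ratios differed by a median of 0.17 for SPA over SVC, 0.32 for MA over SPA and 0.30 for MA over SVC.

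Macrophages are phagocytic cells of the innate immune system, and adipose tissue holds populations of them that differ in genes and position. Cells that gather around dying adipocytes take up lipid and express a lysosomal and lipid-handling set of genes, of which Trem2, Gpnmb, Spp1, Cd68 and Lgals3 are typical. Resident cells along vessels carry scavenger and endocytic receptors such as Mrc1, Cd163 and Folr2. Lyz2 and Csf1r are shared by most cells of the macrophage lineage.

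All 5 lipid-associated genes had their highest signal in SPA, their next highest in SVC and their lowest in MA. The resident genes did not share an order, since Mrc1 and Cd163 were highest in MA and lowest in SPA, and Folr2 was highest in SPA and lowest in MA. Macrophage markers other than the members were Ptprc, Adgre1, Itgam, Mpeg1, Fcgr1, C1qa and C1qb. All 7 were well above background on each of the 3 arrays, and their summed scaled signal was 61.5 in SVC, 58.0 in SPA and 35.4 in MA. They did not share an order, since C1qa, C1qb and Fcgr1 were lowest in SPA and the other 4 in MA.

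**Figure D1:**
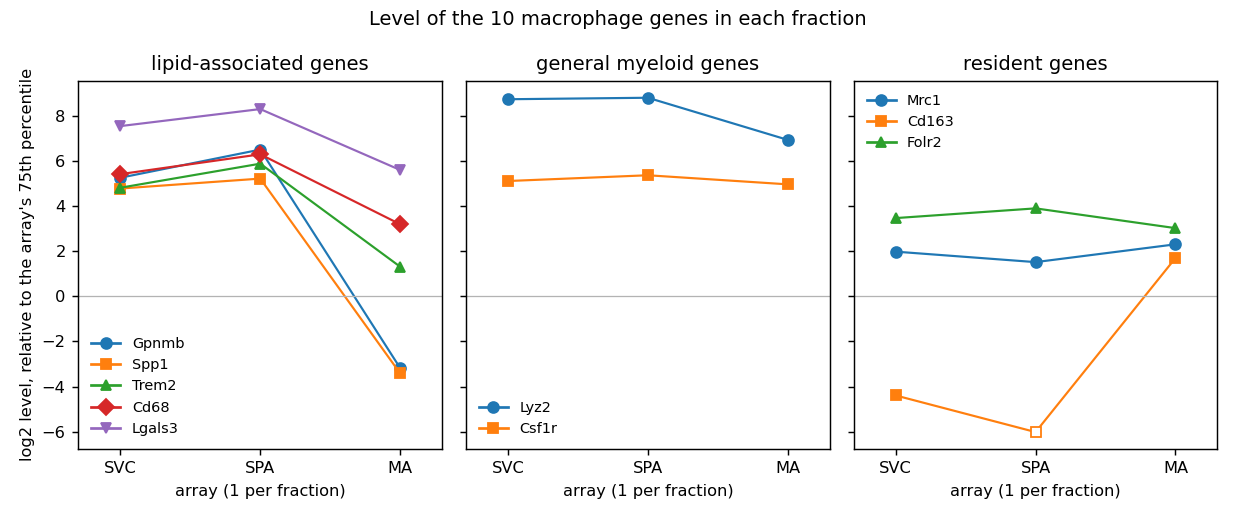
Log2 level of each member gene, relative to the 75th percentile of its array, on the single array of SVC, SPA and MA, with 1 panel for each group of genes. Filled symbols are well above background and the open symbol (Cd163 in SPA) is not, and the height of a line cannot be compared between genes because each gene has its own probe. The 5 lipid-associated genes were all lowest in MA, whereas Cd163 was highest there.

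The 250 bases before the start site of Gpnmb, Spp1, Trem2 and Mrc1 are shown, from RefSeq in the GRCm38.p6 build, because Gpnmb had the largest ratio of the members and the others held a motif that was searched for. The motif GAGGAAG is a form of the PU.1 site of myeloid genes. The motif CACGTG and a relative of it, written TCATGTG, can be bound by the MiT family of lysosomal regulators. All were searched on both strands, and capitals mark GAGGAAG as it reads on the plus or the minus strand. Gpnmb lies at chr6:49036268-49036517, Spp1 at chr5:104434861-104435110, Trem2 at chr17:48346151-48346400 and Mrc1 at chr2:14229164-14229413, all on the plus strand.
Gpnmb: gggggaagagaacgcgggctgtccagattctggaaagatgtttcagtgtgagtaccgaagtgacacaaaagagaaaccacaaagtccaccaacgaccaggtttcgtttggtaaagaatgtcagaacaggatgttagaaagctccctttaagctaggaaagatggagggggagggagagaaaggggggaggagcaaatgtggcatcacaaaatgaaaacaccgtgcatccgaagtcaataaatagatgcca
Spp1: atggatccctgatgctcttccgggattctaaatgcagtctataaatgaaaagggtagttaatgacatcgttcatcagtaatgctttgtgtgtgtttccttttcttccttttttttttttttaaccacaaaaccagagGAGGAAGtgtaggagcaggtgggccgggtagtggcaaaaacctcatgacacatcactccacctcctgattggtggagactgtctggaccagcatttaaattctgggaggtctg
Trem2: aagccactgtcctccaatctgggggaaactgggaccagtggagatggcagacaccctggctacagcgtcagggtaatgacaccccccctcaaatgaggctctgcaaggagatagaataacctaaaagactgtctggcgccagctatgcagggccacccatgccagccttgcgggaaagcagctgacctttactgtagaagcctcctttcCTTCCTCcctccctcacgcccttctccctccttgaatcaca
Mrc1: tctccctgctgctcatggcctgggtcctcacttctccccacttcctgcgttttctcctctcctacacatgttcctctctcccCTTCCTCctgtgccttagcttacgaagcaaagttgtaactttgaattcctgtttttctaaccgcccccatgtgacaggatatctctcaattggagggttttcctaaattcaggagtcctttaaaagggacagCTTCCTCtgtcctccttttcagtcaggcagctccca
GAGGAAG was present in the first promoter listed for Spp1, at -113 from the start site, in that of Trem2, at -41, and at 2 places in that of Mrc1, at -168 and -36. It was present in 10.6% of all 32851 upstream windows of this length and in 3 of the 11 windows of the 9 members examined. CACGTG was in 6.02% and TCATGTG in 3.25% of all windows, and in 0 of the 11. A match of letters is only a description, and lipid-associated and resident members both held one.

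Gpnmb encodes a transmembrane glycoprotein of lysosomes and the cell surface. Its scaled signal was 38.3 in SVC, 91.0 in SPA and 0.110 in MA. SPA was thus the highest, and MA was far below both other fractions, with a signal still marked as well above background. The difference was 2.38-fold between SPA and SVC (log2 ratio 1.25). MA was 824-fold lower than SPA (log2 ratio -9.69) and 347-fold lower than SVC (-8.44). Its ratio ranked 2 from the lowest for MA over SPA and 1 from the lowest for MA over SVC, among all genes that both arrays measured. The normexp background correction, which raises dim signals, made these ratios smaller in size, at -8.44 and -7.20. Its only probe lies at chr6:49006386-49006445 (mm9, plus strand).

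Spp1 encodes osteopontin, a secreted glycoprotein that binds integrins and CD44. The scaled signal was 27.5 in SVC, 37.3 in SPA and 0.0937 in MA. The cultured fractions lay close together, and MA was far below both. SPA exceeded SVC by 1.36-fold (log2 ratio 0.44), and Spp1 was 398-fold lower in MA than in SPA (-8.64). The ratio of MA over SVC was -8.20, or 293-fold lower in MA. It ranked 4 from the lowest for MA over SPA and 3 from the lowest for MA over SVC. With normexp the ratios were -7.14 and -6.68. The single probe lies at chr5:104869788-104869847 (mm9).

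Trem2 encodes a lipid-sensing receptor of myeloid cells that signals through the adaptor Tyrobp. Its scaled signal was 28.2 in SVC, 59.0 in SPA and 2.49 in MA. The gene was well above background in MA too, although the signal there was the lowest of the 3. SPA exceeded SVC by 2.10-fold (log2 ratio 1.07), and Trem2 was 23.7-fold lower in MA than in SPA (-4.57) and 11.3-fold lower in MA than in SVC (-3.50). Its probe is at chr17:48491537-48491596 (mm9). Tyrobp showed 44.4 in SVC, 65.8 in SPA and 11.0 in MA, the same order as its receptor, with a log2 ratio of -2.58 for MA over SPA.

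Cd68 encodes a lysosomal glycoprotein used as a general stain for macrophages. The scaled signal of its brightest probe was 42.8 in SVC, 78.7 in SPA and 9.17 in MA. SPA was 1.84-fold above SVC (log2 ratio 0.88), MA was 8.58-fold below SPA (-3.10) and 4.67-fold below SVC (-2.22). The other 2 probes, also on chromosome 11, gave 0.93 and 0.94 for SPA over SVC and -3.40 and -3.22 for MA over SPA. All 3 probes had the same direction in each comparison. For MA over SVC they fell on both sides of 5-fold, at -2.22, -2.47 and -2.27. One of the other probes had a spot with an outlying local background on the SVC and SPA arrays.

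Lgals3 encodes galectin-3, a lectin that binds galactosides and is recruited to damaged lysosomes. Its brightest probe, at chr14:48005414-48005473 (mm9), had a scaled signal of 187 in SVC, 316 in SPA and 48.6 in MA. The gene was therefore far above background in MA, and lower there than in either cultured fraction. SPA over SVC was 0.75, MA over SPA was -2.70 and MA over SVC was -1.95 (log2 ratios), or 1.69-fold higher, 6.50-fold lower and 3.86-fold lower. A second probe was printed 10 times on every array, which makes Lgals3 the member with a measured spotting error. Its 60 bases span 817 bases at chr14:48004398-48005214 (mm9), so that the probe crosses an intron. It is shown for that reason.
Lgals3 probe: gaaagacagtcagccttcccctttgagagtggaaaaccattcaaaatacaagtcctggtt
The 10 spots ranged from 111 to 118 in SVC, with a mean of 115 ± 2.72 (SD, 10 spots). They ranged from 221 to 239 in SPA (230 ± 6.50) and from 26.0 to 28.7 in MA (26.9 ± 0.983). No spot of one array overlapped with those of another, and the coefficient of variation was 2.37%, 2.83% and 3.66% in SVC, SPA and MA. These spot values include spots flagged as outliers. The ratios leave such spots out, which gave a level of 26.45 in MA. Log2 ratios of this probe were 1.00 for SPA over SVC, -3.12 for MA over SPA and -2.12 for MA over SVC. The spots share 1 RNA sample per array, and do not inform on the spread between animals or cultures.

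**Figure D2:**
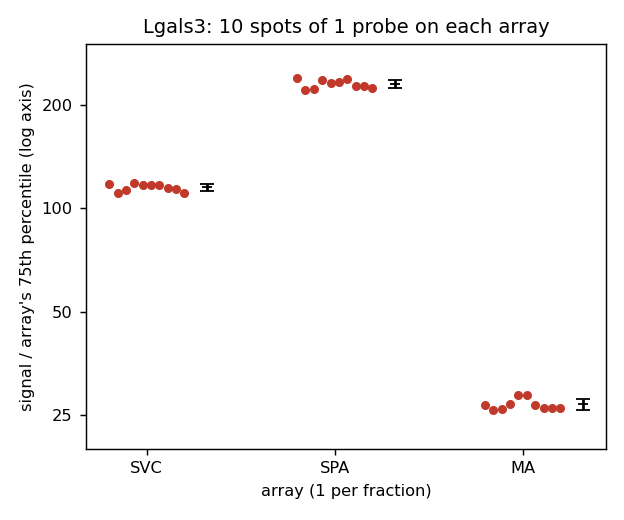
Scaled signal of the 10 spots of the second Lgals3 probe on each array, on a log axis, with 1 point per spot, spots flagged as outliers included. The bar beside each group is the mean ± SD over the 10 spots of 1 array, at 115 in SVC, 230 in SPA and 26.9 in MA, and the spots of different arrays did not overlap.

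Mrc1 encodes the mannose receptor CD206, an endocytic lectin. Its scaled signal was 3.95 in SVC, 2.86 in SPA and 4.95 in MA. MA was the highest and SPA the lowest, within a narrow range. The log2 ratio was -0.46 for SPA over SVC, 0.79 for MA over SPA and 0.33 for MA over SVC, or 1.38-fold lower, 1.73-fold higher and 1.25-fold higher. Its single probe is at chr2:14253273-14253332 (mm9).

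Cd163 encodes the scavenger receptor for complexes of haemoglobin and haptoglobin. The scaled signal of the brighter probe, at chr6:124280484-124280543 (mm9), was 0.0476 in SVC, 0.0154 in SPA and 3.25 in MA. SPA was not well above background. Ratios with SPA therefore used the lowest signal well above background on that array, 0.0284, and are bounds. Cd163 was 68.3-fold higher in MA than in SVC (log2 ratio 6.09), and at least 114-fold higher in MA than in SPA. In SPA it was at least 1.67-fold lower than in SVC, with a log2 ratio of -0.23 under normexp. The SVC signal was itself near the lowest one well above background on its array, 0.0323. The dimmer probe, at chr6:124270436-124270495, was well above background in MA alone and gave bounds of 2.65 for MA over SPA and 2.47 for MA over SVC. Both probes thus had their highest signal in MA, and the sizes differed. With normexp the brighter probe gave 4.40 for MA over SPA and 4.17 for MA over SVC. Erythrocyte markers moved with this receptor of a haemoglobin complex: their summed scaled signal over 4 genes was 0.185 in SVC, 0.195 in SPA and 343 in MA, with 1, 1 and 3 of 4 well above background. Their part in the Cd163 result was not tested.

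Folr2 encodes folate receptor beta. Its scaled signal was 11.1 in SVC, 14.9 in SPA and 8.14 in MA. The order was that of the lipid-associated genes, and the differences were smaller than for any of them in the comparisons with MA. The log2 ratio was 0.43 for SPA over SVC, -0.88 for MA over SPA and -0.45 for MA over SVC, or 1.35-fold higher, 1.83-fold lower and 1.36-fold lower. The spot in SPA had an outlying local background. Folr2 has a single probe, at chr7:108988771-108988830 (mm9, minus strand), which is given because the gene goes against the other resident members.
Folr2 probe: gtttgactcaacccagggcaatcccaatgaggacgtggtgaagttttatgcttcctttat

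Lyz2 encodes lysozyme of the macrophage type. The scaled signal of its brighter probe, at chr10:116714450-116714509 (mm9), was 428 in SVC, 447 in SPA and 123 in MA. SVC and SPA differed by 0.07 on the log2 scale, which is as small as the spotting error of a ratio between single spots (0.07), and they are not placed in an order. MA was 3.65-fold lower than SPA (log2 ratio -1.87) and 3.49-fold lower than SVC (-1.80). The second probe, at chr10:116719175-116719234 (mm9), gave -0.02, -2.08 and -2.10 for SPA over SVC, MA over SPA and MA over SVC. Its sequence is shown because the gene has a close paralog.
Lyz2 probe: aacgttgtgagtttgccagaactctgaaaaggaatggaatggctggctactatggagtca
The probe of that paralog, Lyz1, gave log2 ratios of 0.08, -1.86 and -1.78, and shared hybridization between the pair was not tested.

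Csf1r encodes the receptor for CSF1 and IL-34, on which macrophages depend. Its scaled signal was 34.6 in SVC, 41.3 in SPA and 31.3 in MA, so that the 3 fractions lay within 1.32-fold of each other. The log2 ratio was 0.25 for SPA over SVC, -0.40 for MA over SPA and -0.15 for MA over SVC. The dimmer probe gave 0.04, 0.14 and 0.18, so that the direction of both comparisons with MA depends on the probe. No order of the 3 fractions is therefore given for Csf1r.

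**Figure D3:**
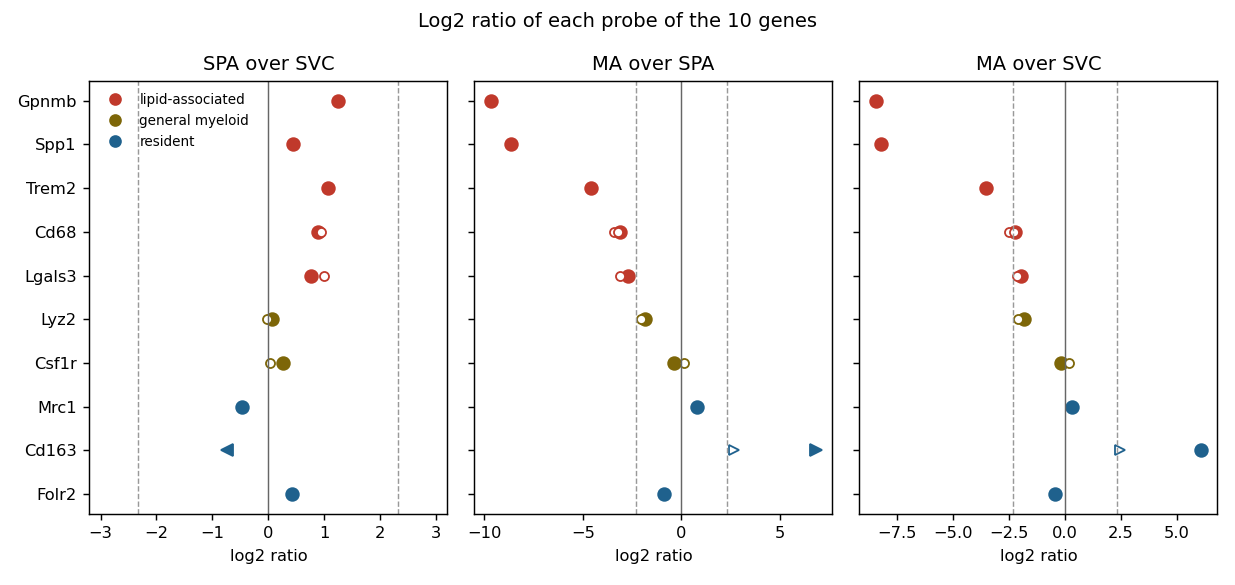
Log2 ratio of each probe of the 10 genes in the 3 comparisons, where filled symbols are the brightest probe of a gene, open symbols its other probes, and triangles are bounds that point to where the ratio may lie further from 0. Dashed lines mark 5-fold. The lipid-associated genes lie to the right of 0 for SPA over SVC and to the left of 0 in both comparisons with MA, and both Cd163 probes lie to the right there.

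Counts were taken at the study's 5-fold rule, with the brighter array well above background. For SPA against SVC, 0 of 10 members were at least 5-fold higher, beside 0.32% of 22808 genes, and 0 were at least 5-fold lower, beside 0.351%. At 2-fold, 2 members were higher in SPA (Gpnmb and Trem2), beside 3.89% of genes, and 0 were lower, beside 3.24%. At 2-fold in the comparisons with MA, 6 members (the lipid-associated genes and Lyz2) were lower in MA than in SPA and 6 lower than in SVC, each beside 18% of genes, and 1 was higher (Cd163), beside 15.7% and 17.2%. For MA against SPA, all 5 lipid-associated genes and no other member were at least 5-fold lower in MA, beside 3.97% of 24101 genes, and Cd163 alone was at least 5-fold higher, beside 5.47%. For MA against SVC, 3 members were at least 5-fold lower (Gpnmb, Spp1 and Trem2), beside 3.96% of 23596 genes, and 1 was higher (Cd163), beside 5.72%. These counts describe genes that were picked on these arrays, and nothing is read from their excess over the background.

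The contrast of the lipid-associated with the resident genes was positive for SPA over SVC and negative in both comparisons with MA. Median log2 ratios were 0.88 and -0.46 for SPA over SVC, a difference of 1.34, with a median of 0.07 over all genes. The lipid-associated genes ranged from 0.44 to 1.25, and the resident genes from -0.74 to 0.43. Spp1 at 0.44 and Folr2 at 0.43 were adjacent and are not placed in an order. With quantile normalization Spp1 was 0.34 and Folr2 0.35, so that the ranges overlapped. For MA over SPA the medians were -4.57 and 0.79, a difference of -5.36, with ranges of -9.69 to -2.70 and -0.88 to 6.84. For MA over SVC they were -3.50 and 0.33, a difference of -3.83. These medians rest on 3 resident genes, and the -0.74 and 6.84 of Cd163 are bounds. Across the alternatives the resident median for SPA over SVC lay between -0.60 and -0.02. With normexp it was -0.23, and the difference from the lipid-associated median was 1.08. The resident median for MA over SPA was -0.04, on the other side of 0, when both arrays had to be well above background, which removes Cd163. Without spots of outlying local background, which removes Folr2, that median was 3.81, and the differences were -8.38 and -6.71. The median over all genes was -0.07 for MA over SPA and -0.00 for MA over SVC. MA over SPA and MA over SVC share the MA array, and SPA over SVC and MA over SPA share the SPA array, so that these comparisons do not bear on one another independently.

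**Figure D4:**
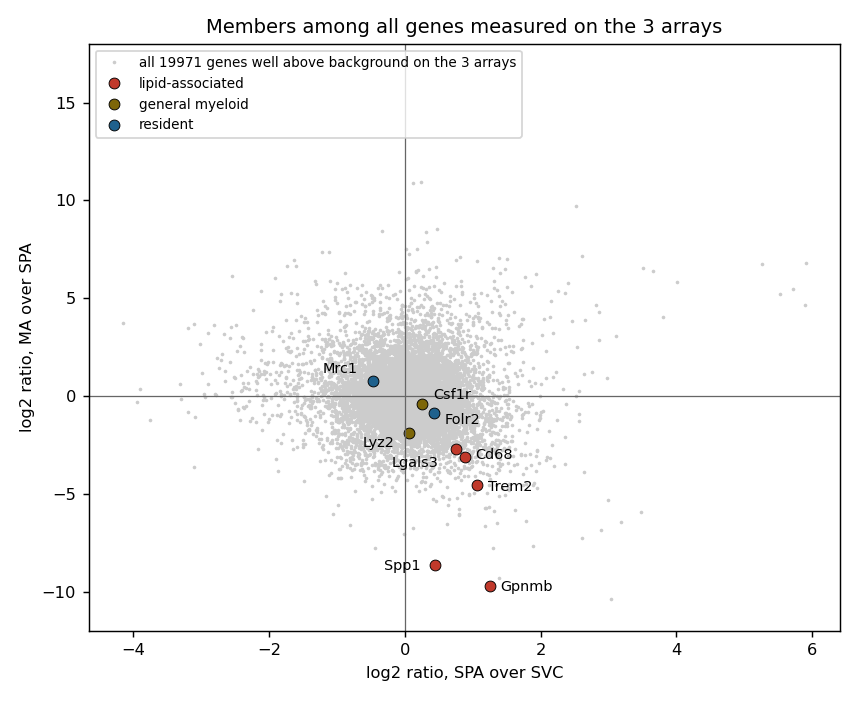
Log2 ratio of SPA over SVC (x axis) against MA over SPA (y axis) for 19971 genes well above background on all 3 arrays (grey) and for 9 members (coloured), without Cd163, which is not well above background in SPA. The axes share the SPA array and are not independent. Gpnmb and Spp1 lie at the lower end of the plot, at -9.69 and -8.64, and Mrc1 lies above 0 on the y axis and below 0 on the x axis.

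The genes whose pattern was most like that of a member were found by the distance between their pairs of log2 ratios (SPA over SVC, MA over SPA) over 3 arrays and 19971 genes. For Gpnmb this was Mmp12, which encodes macrophage elastase, at a distance of 0.42, followed by Spp1 at 1.33 and Gm10639 at 1.91. Mmp12 was the only gene within 0.5 of Gpnmb. It had a scaled signal of 24.1 in SVC, 62.9 in SPA and 0.100 in MA. Mmp12 was also the nearest to Spp1, at 1.15, before Kif1a at 1.22 and Cck at 1.23. Nearest to Trem2 was Hk3, a hexokinase, at 0.17, before BB145042 and Layn, and 15 genes lay within 0.5.

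The remaining members had many genes as near as that, and their nearest neighbours are less particular. Within 0.5 there were 92 genes for Cd68, 181 for Lgals3, 852 for Lyz2, 1373 for Mrc1, 2495 for Folr2 and 5300 for Csf1r. The nearest genes to Cd68 were AA414768, Tcirg1, a subunit of the vacuolar proton pump of osteoclasts, and Napb. Those to Lgals3 were Ly9, Ctsa, a lysosomal carboxypeptidase, and Igf2bp2. Lyz1 was next to Lyz2 at a distance of 0.02, after Champ1 at 0.02.

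Other genes of lipid-associated macrophages were read from a list of 21 without the members. The gene lists here and below were also chosen with earlier results of these data known. Nothing is read from an excess of their counts over the share of all genes. For SPA over SVC, 20 of 21 had a log2 ratio above 0 and the median was 0.86, beside 0.07 over all genes, with 0 at 5-fold in either direction. The largest of these ratios were those of the fatty acid receptor Cd36 (1.61) and the lipid droplet protein Plin2 (1.56), and that of Acp5 was below 0 (-0.36). Adipocyte markers were also higher in SPA, with a summed scaled signal over 7 genes of 1.05 in SVC and 33.2 in SPA. Their part in the ratios of SPA over SVC was not tested. For MA over SPA, 9 of 21 were at least 5-fold lower, beside 3.97% of all genes, and 2 were at least 5-fold higher, beside 5.47%. The median was -1.94. The lowest were Mmp12 (-9.29), Atp6v0d2 (-6.65), a subunit of the vacuolar proton pump, Clec4d (-5.88), a C-type lectin, Cd300lb (-4.98) and Capg (-3.89), an actin-capping protein.

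Not every gene of that list was lower in MA. Acp5, a tartrate-resistant acid phosphatase, had a scaled signal of 11.9 in SVC, 9.23 in SPA and 262 in MA, a log2 ratio of 4.83 for MA over SPA. Apoe, a lipoprotein component, had 16.3, 23.1 and 424, a ratio of 4.20. Lpl, the lipoprotein lipase, had a ratio of 2.13 at its brightest probe, 0.69 as the median of its 6 probes and as low as -2.88 under another choice of probe, so that no direction is given for it. Adipocyte markers moved with MA as well, from a summed scaled signal over 7 genes of 1.05 in SVC and 33.2 in SPA to 2282 in MA, and their part in these ratios was not tested. The cathepsins Ctsb, Ctsd, Ctsl and Ctsk, lysosomal proteases, had ratios of -0.89, -1.94, -1.19 and -2.23.

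Other genes of resident macrophages, 22 without the members, had a median of -0.37 for SPA over SVC. Of these, 1 was at least 5-fold higher and 3 were lower, beside 0.32% and 0.351% of all genes. Those lower in SPA were Cbr2 (-2.55), Marco (-2.54), a scavenger receptor, and Vsig4 (-2.39), a complement receptor, and the one higher was the lectin Clec10a (2.33). With normexp 0 were higher and 1 lower, as Clec10a (2.22), Cbr2 (-2.27) and Vsig4 (-1.05) no longer reached 5-fold. For MA over SPA, 10 of 22 were at least 5-fold higher, beside 5.47% of all genes, and 0 were lower, beside 3.97%. The median was 2.10. Of these 10, 3 were bounds, with SPA not well above background. The count was 9 with normexp and lay between 7 and 11 across the alternatives. The largest were those of Cd209f, Retnla (8.43), Ccl24 (7.36), Cbr2 (6.14) and F13a1 (5.72). Cd209f, a lectin, had a bound of 8.82, and 6.29 with normexp. Retnla is a secreted product of alternatively activated macrophages, Ccl24 a chemokine for eosinophils and F13a1 a clotting factor subunit. Retnla had a scaled signal of 0.525 in SVC, 0.417 in SPA and 144 in MA. Lyve1, a hyaluronan receptor of perivascular macrophages and of lymphatic vessels, was well above background in MA only, at 0.908, and at least 31.9-fold higher there than in SPA (a log2 ratio of 2.95 with normexp). Endothelial markers were higher in MA as well, with a summed signal over 4 genes of 1.03 in SVC, 1.24 in SPA and 19.3 in MA, and their part was not tested.

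Not all resident genes followed. Marco had a log2 ratio of -0.05 for MA over SPA, with a scaled signal of 5.54 in SVC, 0.952 in SPA and 0.920 in MA. Vsig4 had 0.243, 0.0465 and 0.0738. Both were highest in SVC.

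General macrophage and leukocyte genes, 26 in number, had a median of -0.05 for SPA over SVC. Of these, 0 were at least 5-fold higher and 3 were lower, beside 0.32% and 0.351% of all genes. These 3 were the chains of complement C1q, C1qa (-3.19), C1qc (-2.81) and C1qb (-2.48, and -2.24 with normexp, short of 5-fold). For C1qa the scaled signal was 6.43 in SVC, 0.705 in SPA and 7.95 in MA, so that SPA stood apart from both other fractions. For MA over SPA, 7 of the 26 were at least 5-fold lower and 6 higher, beside 3.97% and 5.47% of all genes. The median was -1.27. The scavenger receptor Msr1 (-4.90), the protease Ctss (-3.48) and Mpeg1 (-3.47), a pore-forming protein of macrophages, were the lowest. Among those higher in MA were C1qc (3.65), C1qb (3.62) and C1qa (3.50). The chemokine receptor Ccr2, below background in SPA, was at 3.98 against that bound and short of 5-fold with normexp. The leukocyte antigen Ptprc was nearly level, with a scaled signal of 3.59 in SVC, 3.76 in SPA and 3.27 in MA. Adgre1, which encodes F4/80, had 13.9, 14.5 and 3.73.

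**Figure D5:**
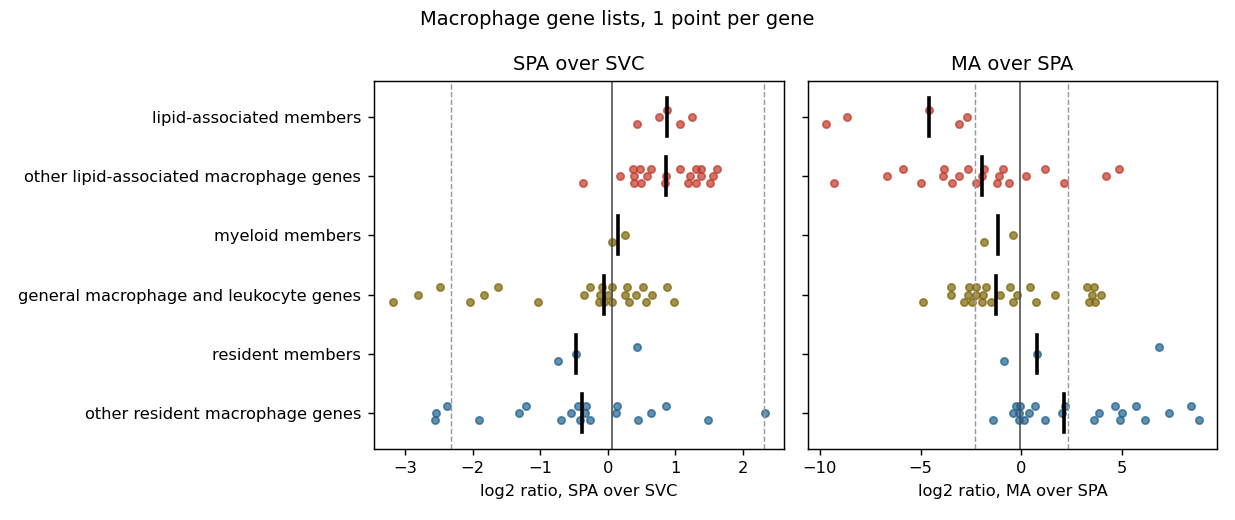
Log2 ratio of SPA over SVC (left) and MA over SPA (right) for the member genes and 3 further lists, with 1 point per gene, bounds included. Thick bars are the medians of the lists, the thin line is the median of all genes, and dashed lines mark 5-fold. Medians for MA over SPA were -4.57 and -1.94 in the lipid-associated lists and 0.79 and 2.10 in the resident lists, of which 0.79 turns to -0.04 when both arrays must be well above background.

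Ligands and signalling partners of CSF1R and TREM2 were read from 19 genes. For SPA over SVC 0 were at least 5-fold higher or lower, beside 0.32% and 0.351% of all genes, with a median of 0.41. For MA over SPA 3 were higher and 3 lower, beside 5.47% and 3.97%, with a median of -0.89. Csf1, a ligand of the CSF1 receptor, had a scaled signal of 75.7 in SVC, 73.5 in SPA and 5.26 in MA (-3.80 for MA over SPA). The other ligand, Il34, went the opposite way, with 0.489, 0.618 and 3.72 (2.59). The receptor Csf1r itself differed by 0.40 or less in every comparison. The lipid-responsive nuclear receptors Pparg and Nr1h3 had ratios of 2.55 and 2.42 for MA over SPA, and both also serve adipocytes. Tfec, a MiT family factor, had -3.47, and only -1.47, short of 5-fold, with normexp. Mitf, another member of that family, had -1.38.

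Over all genes, 0.32% were at least 5-fold higher and 0.351% lower in SPA than in SVC. In MA against SPA, 5.47% were higher and 3.97% lower. Among 8 receptors for osteopontin and partners of GPNMB, 0 differed by 5-fold between SPA and SVC, and 1, the integrin Itgb3 (-2.78), between MA and SPA. Cd44, an osteopontin receptor, was -2.32 for MA over SPA, just short of 5-fold, and -2.38 for MA over SVC. Of 14 scavenger receptors, folate receptor relatives and lysosomal membrane proteins, Marco was lower in SPA than in SVC, and Msr1 and Mrc2 (-2.60), the relative of Mrc1, were lower in MA than in SPA. Mrc2 was short of 5-fold with normexp (-2.10) and as the median of its probes (-1.78). Mrc1 and Mrc2 thus had ratios of opposite sign. Of 10 galectins and lysozymes, 3 were at least 5-fold higher in MA than in SPA and 0 lower. The highest at the brightest probe was Lgals2 (3.80). With normexp 0 were at least 5-fold higher, Lgals2 included. Lgals12 had -0.49 at its brightest probe, 3.105 as the median of its 2 probes and up to 6.70 under another choice of probe. No direction is given for Lgals12. Lgals1, the most studied relative of Lgals3, had 340 in SVC, 270.0 in SPA and 339 in MA, so that Lgals1 did not have the low MA signal of Lgals3.

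Markers of other cell types were read on the same arrays. Fibroblast markers had a summed scaled signal over 5 genes of 474 in SVC, 223 in SPA and 419 in MA, and mesothelial markers over 4 genes 12.4, 2.04 and 16.2. Col1a2 at its brightest probe made up 181 of the fibroblast sum in MA. That probe gave 0.45 for MA over SPA and -0.65 for MA over SVC, but the median of its probes gave -3.46 and -5.13. No direction is therefore given for the fibroblast sum in comparisons with MA. Of the 5 measured osteoclast markers (median log2 ratio -2.23), Ctsk, Dcstamp and Atp6v0d2 were lower in MA than in SPA, while Acp5 was higher. Ocstamp was level, at -0.04 and at 0.01 with normexp, and is given no direction. This list shares Acp5, Ctsk and Atp6v0d2 with the lipid-associated list. Of the 5 dendritic cell markers with a ratio, 4 were higher in MA than in SPA, with a median of 0.43, and Itgax was lower (-3.07). That median is the value of Clec9a, a bound, because Clec9a was not well above background in SPA. Of the neutrophil markers, 2 were higher in MA (S100a9 and Retnlg) and 3 lower, so that no direction is given for them. The part of these cell types in the members' ratios was not tested.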

How the data were processed

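Gene expression was measured with 1 Agilent SurePrint G3 mouse array for each of SVC, SPA and MA. The values that the authors deposited per spot are intensity values of Agilent Feature Extraction 10.7.3.1, and its processed signal has been background-subtracted and detrended. The authors also deposited a ratio of that signal to 1 constant per array, which departed from such a constant by a relative 1.37e-06 at most (column medians 0.0743, 0.0783 and 0.0789). The scale is therefore linear, with no centring of genes. The methods name GeneSpring GX, and its normalization is not given in the sources used here.

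Processed signals were divided by the 75th percentile over non-control spots of the array (430, 439 and 366 in SVC, SPA and MA). Spots flagged as outliers were left out (75, 98 and 129), and spots of a probe were averaged on the log2 scale. The probe with the highest mean over the 3 arrays stood for its gene. A probe without Agilent's flag for being well above background got a bound, either the lowest signal with the flag of that array or its own signal, whichever was higher. Genes were counted at a fold, or a bound of it, of 5 or more, if the brighter of both arrays had the flag. No test was run, because each group has 1 array, and precision is limited by their number.

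Members and gene lists were chosen with earlier results of these data known. Named genes are the members, up to 5 members of a list past 5-fold, the 3 nearest genes of each member, and further list members picked afterwards to show exceptions or partners. Names were updated by accession through RefSeq of GRCm38.p6 (32989 of 56605 probes matched, 0 member probes renamed). Probe positions come from the mm9 annotation of the array, and exons were not assigned. The alternatives were normexp with an offset of 50, quantile normalization, another percentile, the deposited ratios, no filter or a stricter filter on dim probes, 2 other probe rules, spots with outlying background left out, and 2-fold. Ratios and calls were run on simulated data, with changes planted in bright genes only. Those changes did not involve the bounds of dim probes. R 4.3.3 with limma 3.58.1, and Python 3.11.15 with numpy 2.4.6, pandas 2.3.3 and matplotlib 3.10.9, were used.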

Additional observations from a re-analysis of the deposited data

How the results depend on the processing

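Of 265 ratios of members under 9 alternatives, 262 kept their direction and their side of 5-fold. For MA over SVC, Csf1r turned to 0.18 at its probe with the largest ratio and to 0.016 as the median of its probes, and Cd68 passed 5-fold at its probe with the largest ratio (-2.47). When both arrays of a comparison had to be well above background, Cd163 drops out, so that 0 members were higher in MA than in SPA, and the lipid-associated minus resident median became -4.53. Without spots of outlying local background Folr2 drops out, and that difference became -8.38 for MA over SPA and -6.71 for MA over SVC. At 2-fold, 2 members were higher in SPA (against SVC), beside 3.89% of genes, and 6 lower in MA (against SVC), beside 18%. With normexp the ratios of Gpnmb and Spp1 for MA over SPA were smaller in size, -8.44 and -7.14. Over all genes, normexp gave 30 higher and 15 lower at 5-fold for SPA against SVC (73 and 80 in the values reported), 762 and 459 for MA against SPA (1318 and 957) and 782 and 441 for MA against SVC (1349 and 935). No filter gave 287 and 159 for SPA against SVC and moved the median of all genes for MA over SVC to -0.19. The cause of these shifts was not tested. Dim probes are limited by signal over background, and 1 array per fraction leaves the spread between samples unknown. No paired analysis was possible because each group has 1 array.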
